A study of Mus musculus with 40 samples.

Results

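The xenobiotic-metabolising enzymes of the mouse lung are described here through 132 genes of 8 families. Members were chosen by a rule on gene symbols that leaves out Cyp2f2 and was set with earlier results of these data known. The members are all array genes whose symbol begins with Cyp, Gst, Aldh, Ugt, Fmo, Sult, Ephx or Ces in numbered or lettered form. They make up 132 of the 12393 genes tested, with 62 Cyp, 18 Gst, 17 Aldh, 11 Sult, 9 Ugt, 9 Ces, 4 Fmo and 2 Ephx genes. Each gene was read from 1 probe set, the brightest over the 40 arrays. The arrays fall into 8 groups of 5, read from the titles. These are AJ lungs 6 h after an aspirated allergen and 6 h after aspirated phosphate-buffered saline (PBS), the same pair at 24 h, and the same 4 groups in C3H. The PBS lungs were thus aspirated as well, so they are handled controls and not naive lungs. The labels call AJ hyperresponsive, abbreviate the allergen as OVA in titles and as HDM in descriptions, and write AJ in every description, also under the 20 titles that carry C3H. They give neither age nor sex, and do not say that numbered replicates are separate mice. The p-values below thus rest on how much arrays of a group differed, and some of that may be technical.

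As background, Cyp and Fmo enzymes oxidise foreign and endogenous small molecules, using electrons from NADPH. Ephx and Ces enzymes hydrolyse epoxides and esters, and Aldh enzymes oxidise aldehydes to acids. Gst, Ugt and Sult enzymes couple the products to glutathione, glucuronic acid or sulfate. In rodent lung these activities are concentrated in club cells of the airway epithelium, and several members also act on retinoids, sterols and eicosanoids.

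RNA from whole lung was hybridised to 1-colour Affymetrix arrays, and the deposited intensities had a common trimmed mean of 150.036 to 150.046 on every array, so array totals carry no depth. Alveolar type 2 markers were bright in every group (mean log2 level of 6 measured genes 11.1 to 11.8 on single arrays). Of the 132 members, 68 never fell below an intensity of 16 and 12 lay below it on every array. All 132 stayed in the fit. Differences are given as log2 fold changes of intensity + 16 with limma's standard error (SE), a scale that understates the change of dim genes. A member is said to have risen or fallen where its Benjamini-Hochberg adjusted p over all 12393 genes was under 0.05.

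In AJ lungs at 24 h after allergen, 17 of 132 members fell and 4 rose. The share that fell was 12.9%, against a background of 3.28% of all genes lower, and the background for higher was 4.56%. The median member changed by -0.07, against a median of -0.0043 over all genes. At 6 h in AJ, 13 members fell and 4 rose, but 12.0% of all genes were lower and 7.03% higher in that comparison. The members' share of 9.85% lower thus did not exceed the background at 6 h.

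In C3H lungs 8 members fell and 4 rose at 6 h (backgrounds 3.69% lower and 3.93% higher). At 24 h in C3H, 3 members fell and 1 rose (backgrounds 1.15% lower and 2.10% higher). Over the 4 allergen comparisons 30 members were called at least once, 24 of them lower, 6 higher and 0 in both directions. Aldh1a3 and Ephx1 were called in all 4. The other 102 members were called in none. The share of all genes called at least once is not given, so these pooled counts have no background beside them. In AJ at 6 h alone 12.9% of members and 19% of all genes were called.

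**Figure D1:**
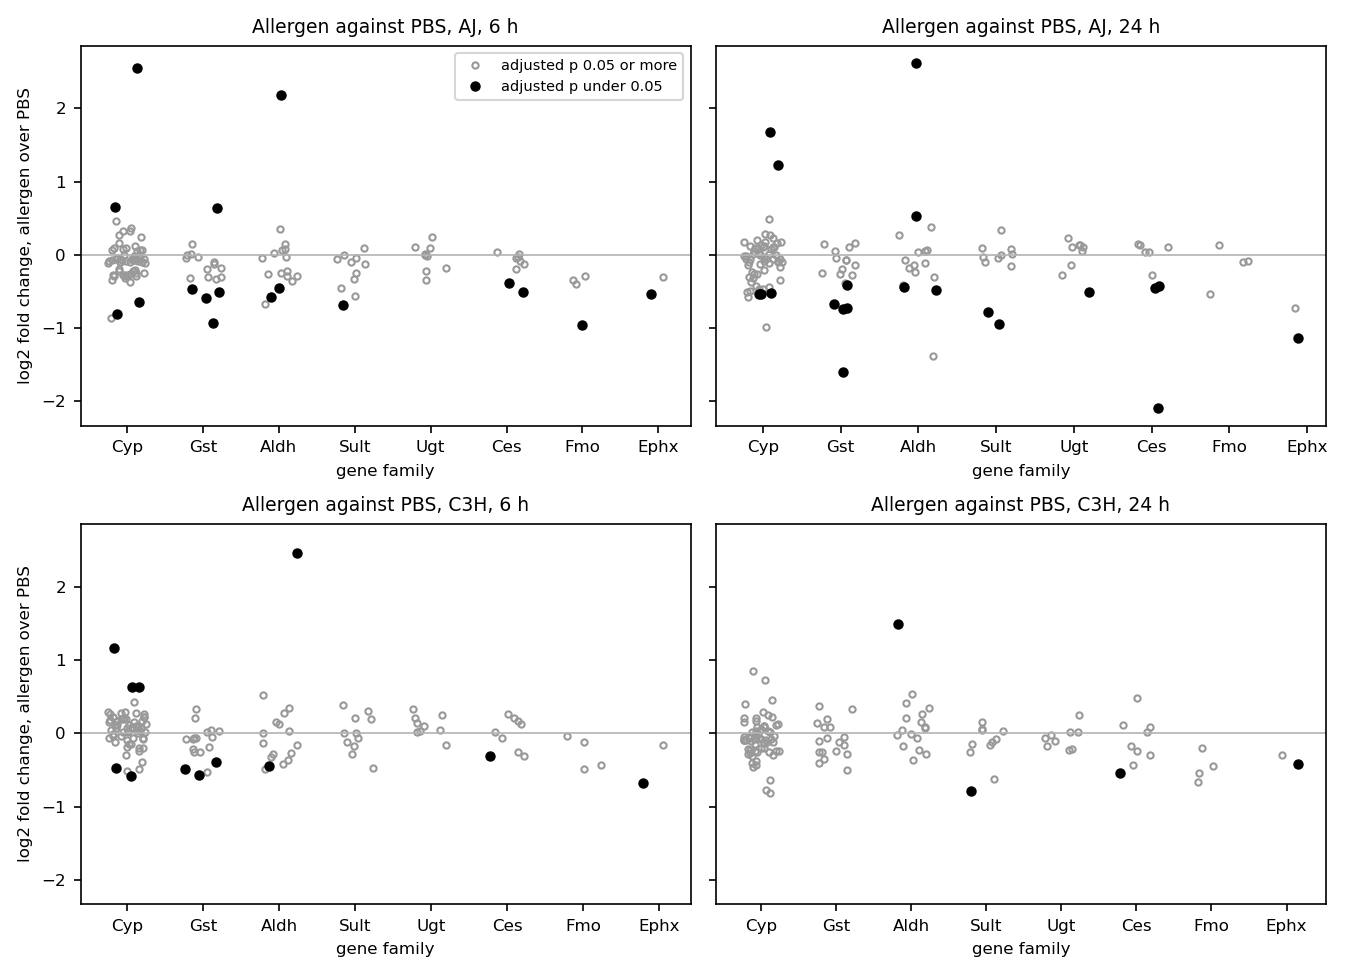
Log2 fold change (allergen over PBS) of every member, by gene family, in the 4 allergen comparisons. Each point is 1 gene, and filled points have a limma adjusted p under 0.05. In AJ at 24 h, 17 filled points lie below 0 and 4 above it, while in C3H at 24 h there are 3 below and 1 above.

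Markers of other tissues and cells moved in several allergen comparisons. Values for AJ at 24 h come first. Goblet cell genes were higher (6 of 6, mean log2 fold change 2.71), as were macrophage genes (7 of 7, 1.41), neutrophil genes (3 of 5, 1.46) and 1 of 5 lymphocyte genes (0.83). Of the alveolar type 1 list 2 of 6 genes were lower (-0.37) and of the ciliated list 1 of 4 (-0.44). The goblet, macrophage, neutrophil, alveolar type 1 and ciliated list levels did not overlap between AJ allergen and AJ PBS lungs at 24 h. The cardiac and skeletal muscle list had 3 of 7 genes lower (mean log2 fold change -1.30), the adipocyte list 1 of 4 (-0.99) and the liver list 2 of 5 (-0.67). The liver list's mean log2 level spanned 4.93 to 5.21 in AJ allergen lungs at 24 h and 5.22 to 6.35 in AJ PBS lungs at 24 h. The muscle list's level spanned 7.59 to 8.61 and 9.10 to 9.94 in the same groups, so neither list overlapped. The adipocyte, club cell, alveolar type 2, endothelium, fibroblast and lymphocyte levels overlapped between these groups. Alb, the plasma albumin gene, read 35.6 to 53.8 in the allergen lungs, against 183, 457, 43.3, 58.4 and 283 in the PBS lungs. Of the club cell list 2 of 6 genes were lower (-0.32), and Scgb1a1, its defining secretory protein, was not called. The part of the lists named so far, other than muscle, adipocyte and liver, in the members' falls and rises was not tested. With the muscle and adipocyte levels as covariates, a choice made after seeing the data, 11 of the members were lower, with the liver level 8, and without AJ PBS replicate 5 also 11. The share of all genes lower under these settings is not given, so these counts have no background beside them. Ces1g, Gsta2, Ephx1, Gstm1 and Sult2b1 were lower under every alternative run. Goblet and macrophage levels were higher with allergen, without overlap, in AJ at 6 h and in C3H at both times. The alveolar type 1 level spanned 10.575 to 10.878 with allergen and 11.008 to 11.309 with PBS in AJ at 6 h. In C3H at 6 h it spanned 10.669 to 10.927 and 11.034 to 11.273, and at 24 h it overlapped. The neutrophil level in AJ at 6 h spanned 9.035 to 9.64 with allergen and 6.539 to 7.424 with PBS. In C3H at 6 h the alveolar type 2 level spanned 11.141 to 11.392 and 11.419 to 11.609. The endothelium level there spanned 9.061 to 9.535 and 9.549 to 10.052. Muscle, liver and ciliated levels overlapped in AJ at 6 h and in C3H at both times. The part of goblet, macrophage, neutrophil, endothelium and both alveolar lists in the members' changes in these comparisons was not tested. In whole lung, fewer cells of a type and less RNA per cell cannot be told apart.

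**Figure D2:**
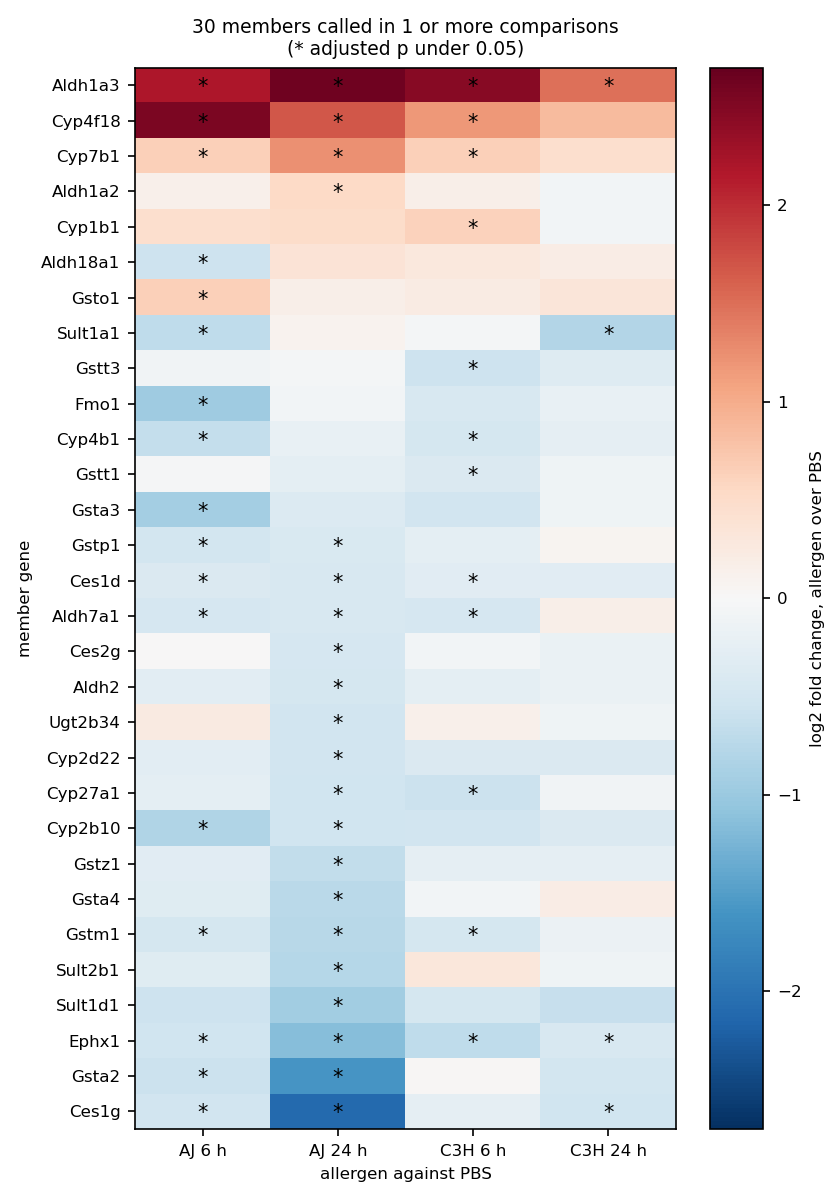
Log2 fold change (allergen over PBS, colour scale) of the 30 members called in at least 1 of the 4 allergen comparisons, sorted by the value in AJ at 24 h. Asterisks mark limma adjusted p under 0.05: 21 in AJ at 24 h, 17 in AJ at 6 h, 12 in C3H at 6 h and 4 in C3H at 24 h.

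Among the 6 retinoid members, Aldh1a3 rose in every comparison. Aldh1a3 is a retinaldehyde dehydrogenase, an enzyme that makes retinoic acid. At 6 h in AJ its intensities were 100, 44.5, 78.6, 78.3 and 61 with allergen, against 2.7, 3.98, 3.88, 3.44 and 1.43 with PBS. The AJ intensities at 24 h were 88.6, 100, 107, 131 and 67, against 1.8, 1.67, 3.56, 2.82 and 2.03. The groups lay far apart at both times, and the PBS values were near the bottom of the scale.

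C3H lungs showed the same direction for Aldh1a3. At 6 h the C3H intensities were 144, 107, 135, 168 and 127 with allergen, against 15.5, 15.5, 6.81, 3.43 and 19.1 with PBS. At 24 h they were 44.8, 56.7, 35.3, 58.9 and 10.4, against 2.7, 2.45, 2.9, 1.27 and 6.19. The groups did not overlap in C3H either, although C3H allergen replicate 5 at 24 h stood only just above the PBS arrays. The log2 fold changes of Aldh1a3 were 2.18 ± 0.19 (adjusted p = 4.53e-11) in AJ at 6 h, 2.62 ± 0.19 (adjusted p = 1.28e-12) in AJ at 24 h, 2.46 ± 0.19 (adjusted p = 3.39e-11) in C3H at 6 h and 1.498 ± 0.19 (adjusted p = 2.43e-06) in C3H at 24 h. Their size depends on the pseudocount and the probe set: in AJ at 24 h it ran from 1.28 to 4.88 over the alternatives. Its other, dimmer probe sets changed less, by 0.10 and 0.20 in AJ at 6 h and 0.32 and 1.04 in AJ at 24 h. In C3H they gave 0.13 and 0.48 at 6 h and -0.08 and 0.25 at 24 h.

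Aldh1a2, the retinaldehyde dehydrogenase of mesenchyme and some myeloid cells, rose in AJ at 24 h. Its 5 arrays spanned 124 to 185 with allergen and 83 to 114 with PBS in AJ at 24 h, without overlap (log2 fold change 0.54 ± 0.15, adjusted p = 0.0167). That call was lost without AJ allergen replicate 4 at 24 h (adjusted p = 0.0637) and with the muscle and adipocyte lists as covariates. The abundant Aldh1a1, which oxidises retinaldehyde among other aldehydes, had values of -0.23 ± 0.11, -0.17 ± 0.11, -0.32 ± 0.11 and 0.09 ± 0.11 in AJ at 6 h, AJ at 24 h, C3H at 6 h and C3H at 24 h, none past the threshold. Of 10 measured retinoid partner genes outside the families, Rbp4, the retinol carrier protein, fell in AJ at 6 h (-0.81 ± 0.22, adjusted p = 0.00623) and at 24 h (-0.87 ± 0.22, adjusted p = 0.00828). Rarb, a retinoic acid receptor, fell at 24 h in AJ (-0.46 ± 0.15, adjusted p = 0.0432) and in C3H (-0.63 ± 0.15, adjusted p = 0.0107). Covariates and left-out arrays are given for members only. The part of the liver, adipocyte and other lists in these partner calls was not tested.

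Of 17 fatty acid and eicosanoid members, Cyp4f18 had the largest change. In the mouse Cyp4f18 is known as a neutrophil enzyme that hydroxylates leukotriene B4. At 6 h in AJ it read 92.2, 201, 99.1, 129 and 73.4 with allergen, against 2.99, 10.2, 5.21, 7.06 and 5.25 with PBS. At 24 h the AJ values were 94.6, 65.7, 13.8, 63.9 and 84.4, against 7.21, 5.32, 10.8, 4.58 and 7.48. AJ groups did not overlap at either time, but AJ allergen replicate 3 at 24 h was close to the PBS arrays.

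In C3H at 6 h Cyp4f18 read 33.8, 61.1, 32, 8.7 and 47.9 with allergen, against 8.07, 5.4, 4.34, 3.83 and 8.9 with PBS. In C3H at 24 h it read 33.6, 40.7, 16.7, 19.5 and 2.12, against 2.46, 4.62, 2.59, 4.73 and 4.81. At each of these times 1 allergen array, replicate 4 at 6 h and replicate 5 at 24 h, was no higher than the highest PBS array. The log2 fold changes were 2.54 ± 0.28 (adjusted p = 5.07e-09) in AJ at 6 h, 1.68 ± 0.28 (adjusted p = 4.39e-05) in AJ at 24 h, 1.16 ± 0.28 (adjusted p = 0.00536) in C3H at 6 h, and 0.86 ± 0.28 (adjusted p = 0.0811) in C3H at 24 h, the last not past the threshold. Neutrophil markers moved alongside: their mean log2 fold change was 2.58, 1.46, 1.13 and 0.13 in those 4 comparisons, with 5, 3, 3 and 0 of 5 measured genes higher. Their part in the Cyp4f18 result was not tested.

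Cyp4b1, a bright lung monooxygenase of fatty acids and of pneumotoxic furans, fell at 6 h in both strains. Its arrays spanned 1547 to 2019 with allergen and 2494 to 2818 with PBS in AJ (-0.64 ± 0.11, adjusted p = 3.28e-05). In C3H they spanned 1251 to 1605 and 1659 to 2372 (-0.47 ± 0.11, adjusted p = 0.00472). Neither pair of groups overlapped, and both calls held under every alternative run. At 24 h Cyp4b1 was at -0.20 ± 0.11 in AJ and -0.24 ± 0.11 in C3H, neither past the threshold. Ephx2, the soluble epoxide hydrolase of epoxy fatty acids, did not pass in any allergen comparison (AJ at 24 h -0.73 ± 0.26, adjusted p = 0.0846).

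Among 13 sterol, bile acid, steroid and vitamin D members, Cyp7b1 rose and Cyp27a1 fell. Cyp7b1 hydroxylates oxysterols, and its product from 25-hydroxycholesterol leads to a lymphocyte-attracting oxysterol. In AJ at 6 h Cyp7b1 read 89.6, 71.6, 81.4, 65.3 and 79.9 with allergen, against 42.2, 48.9, 57.6, 33.1 and 38.1 with PBS. At 24 h the AJ values were 143, 117, 119, 156 and 112, against 44.4, 62.9, 37.4, 34.8 and 52.6. Allergen and PBS arrays were apart at both times in AJ.

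In C3H the Cyp7b1 arrays overlapped. At 6 h they read 115, 170, 98.3, 107 and 127 with allergen, against 73.6, 31.6, 121, 64.9 and 99 with PBS. At 24 h they read 84, 136, 107, 116 and 47.1, against 53.5, 71.2, 58.6, 82.3 and 56. Cyp7b1 rose by 0.65 ± 0.20 (adjusted p = 0.0187) in AJ at 6 h, 1.23 ± 0.20 (adjusted p = 4.38e-05) in AJ at 24 h and 0.63 ± 0.20 (adjusted p = 0.0459) in C3H at 6 h. Its value in C3H at 24 h was 0.46 ± 0.20 (adjusted p = 0.218). The C3H call at 6 h was lost under 12 of 19 alternatives (adjusted p up to 0.219), among them leaving out PBS replicate 1, 2 or 4 or allergen replicate 1, 2, 4 or 5, and the AJ call at 6 h without AJ PBS replicate 4 (adjusted p = 0.0567). The difference between strains at 24 h, -0.77 ± 0.29, did not pass (adjusted p = 0.242). Cyp27a1, the mitochondrial sterol 27-hydroxylase, fell in AJ at 24 h (-0.54 ± 0.15, adjusted p = 0.0221) and in C3H at 6 h (-0.58 ± 0.15, adjusted p = 0.0137). The AJ call was lost without allergen replicate 2 or 3 or PBS replicate 1 or 2 (adjusted p up to 0.117), and the C3H call without allergen replicate 4 (adjusted p = 0.0507). Cyp51, which removes a methyl group from lanosterol in cholesterol synthesis, did not pass in any allergen comparison.

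**Figure D3:**
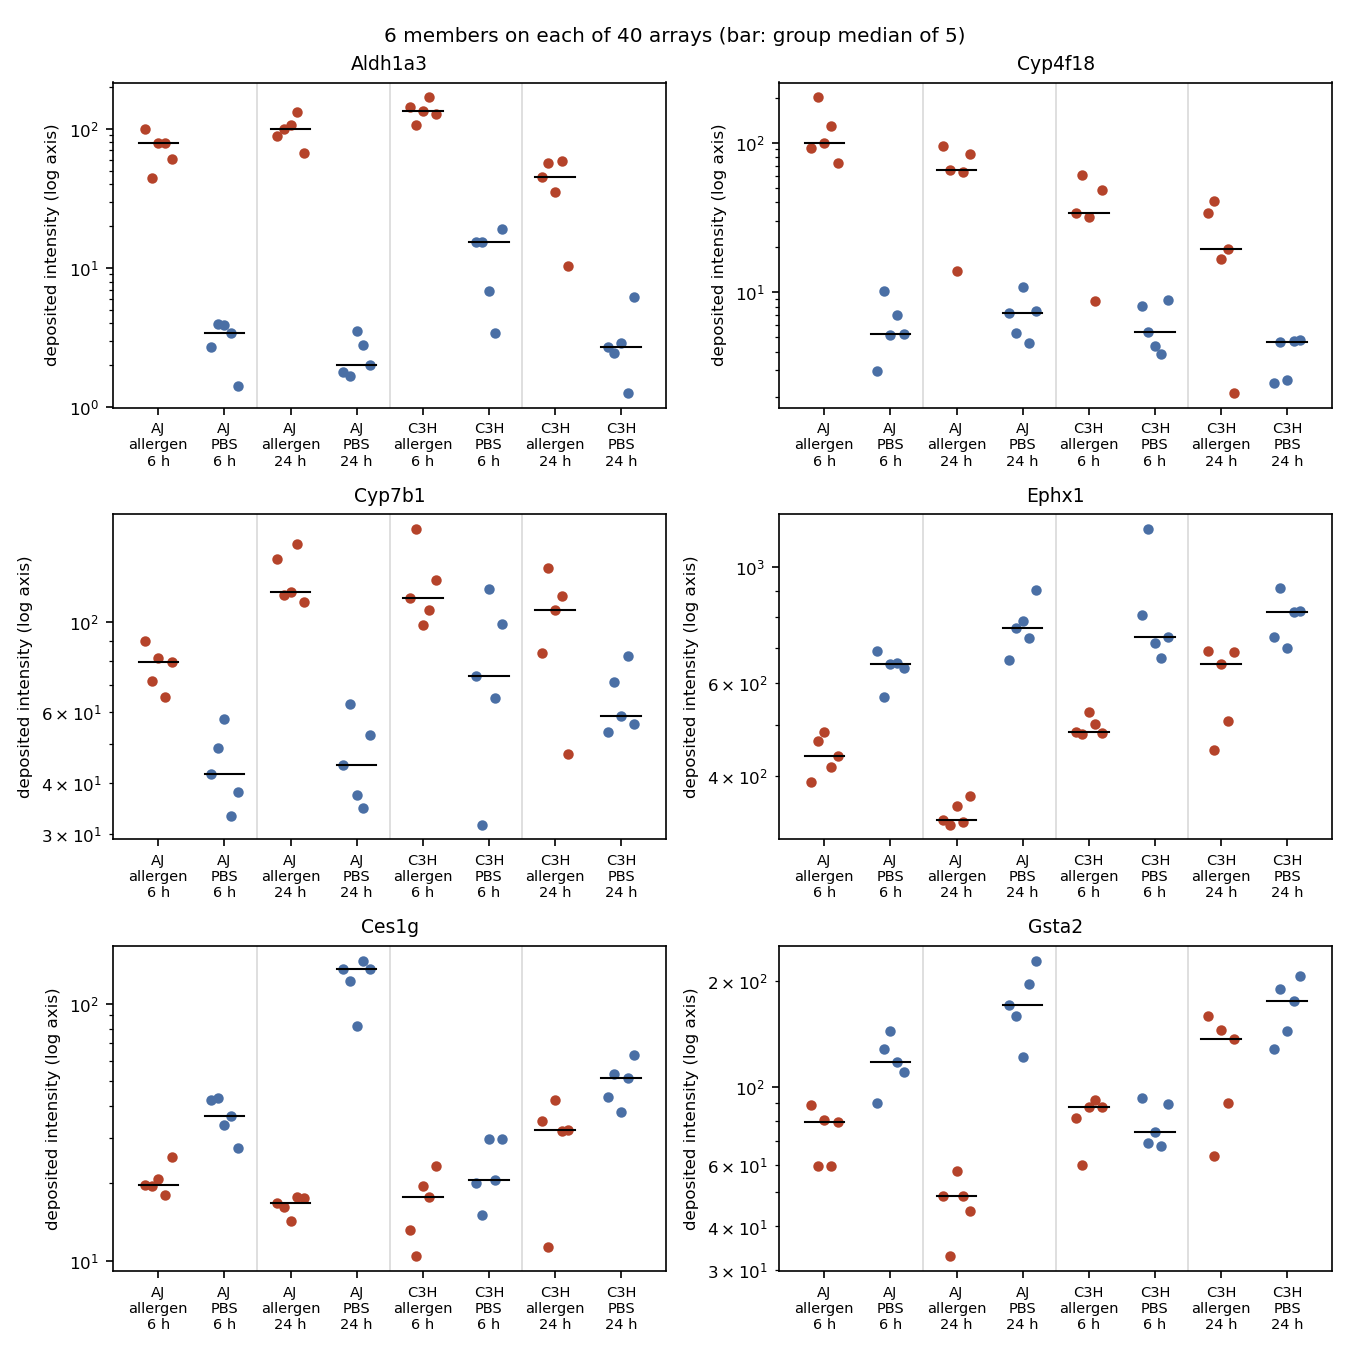
Deposited intensity (log axis) of Aldh1a3, Cyp4f18, Cyp7b1, Ephx1, Ces1g and Gsta2 on each of the 40 arrays, allergen in red and PBS in blue, with a bar at each group's median of 5. Aldh1a3 medians were 44.8 to 135 in the allergen groups and 2.03 to 15.5 in the PBS groups. Ces1g read 81.6 to 147 in AJ PBS lungs at 24 h, above every other group.

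Of the enzymes that oxidise drugs and pollutants, Cyp2b10, Fmo1 and Cyp2d22 passed the test as lower in AJ. Cyp2b10, in liver the classical target of the receptor CAR, spanned 821 to 1324 with allergen and 1433 to 2182 with PBS in AJ at 6 h (-0.81 ± 0.17, adjusted p = 0.000577). At 24 h the AJ spans were 826 to 1610 and 1238 to 1806, which overlap (-0.54 ± 0.17, adjusted p = 0.0454), and that call was lost under 11 of 19 alternatives, among them leaving out any of allergen replicates 1 to 4 or PBS replicates 3 to 5. Its other probe sets gave -0.92 and -0.93 at 6 h and -0.45 and -0.65 at 24 h. In C3H Cyp2b10 was at -0.51 ± 0.17 at 6 h (adjusted p = 0.0666) and -0.40 ± 0.17 at 24 h (adjusted p = 0.208), with its other probe sets at -0.59 and -0.51 at 6 h and -0.39 and -0.30 at 24 h. Fmo1, which oxidises nitrogen and sulfur atoms of drugs, read 631, 970, 841, 607 and 565 with allergen, against 1330, 1370, 1356, 1513 and 1390 with PBS in AJ at 6 h. It fell by 0.96 there (SE 0.14, adjusted p = 2.05e-06), with no overlap of the groups. In C3H at 6 h Fmo1 was at -0.43 ± 0.14 (adjusted p = 0.0523), and at 24 h at -0.08 ± 0.14 in AJ and -0.21 ± 0.14 in C3H.

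Cyp1a1 and Cyp1b1 are induced by the aryl hydrocarbon receptor. Cyp1b1 rose in C3H at 6 h, where it spanned 158 to 253 with allergen and 75.7 to 170 with PBS (0.63 ± 0.17, adjusted p = 0.0159). It was at 0.46 ± 0.17 in AJ at 6 h (adjusted p = 0.0562) and at 0.49 ± 0.17 in AJ at 24 h (adjusted p = 0.0773). The C3H call was lost without C3H PBS replicate 2, allergen replicate 1 or allergen replicate 2 (adjusted p 0.061 to 0.0797), and without any of these arrays 2 and not 4 members were higher in C3H at 6 h. Cyp1a1 did not pass in any comparison, and was at -0.34 ± 0.25, -0.26 ± 0.25, -0.19 ± 0.25 and 0.72 ± 0.25 in AJ at 6 h, AJ at 24 h, C3H at 6 h and C3H at 24 h. Tiparp, a repressor that the same receptor induces, rose in AJ at 6 h (1.18 ± 0.17, adjusted p = 9.96e-07), and that effect was smaller in C3H by 1.05 (difference -1.05 ± 0.24, adjusted p = 0.00895). Ahr, the receptor itself, fell in AJ at 6 h by 0.51 (SE 0.16, adjusted p = 0.0215). Cyp2e1, the ethanol-oxidising form, varied widely within groups (115 to 302 with allergen and 286 to 534 with PBS in AJ at 6 h) and did not pass anywhere. Cyp2d22 was at -0.28 ± 0.15 in AJ at 6 h, -0.39 ± 0.15 in C3H at 6 h and -0.38 ± 0.15 in C3H at 24 h, none past the threshold. It fell in AJ at 24 h (-0.53 ± 0.15, adjusted p = 0.0206), a call lost without AJ allergen replicate 2 or 3 or AJ PBS replicate 3 or 5.

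Ephx1, the microsomal epoxide hydrolase, fell in all 4 allergen comparisons. In AJ at 6 h it read 389, 466, 484, 416 and 436 with allergen, against 691, 564, 652, 654 and 642 with PBS. In AJ at 24 h it read 329, 323, 351, 327 and 366, against 665, 765, 787, 730 and 901. The allergen arrays lay within a narrow band below the PBS arrays, by 1.14 on the log2 scale at 24 h (-1.14 ± 0.12, adjusted p = 4.55e-09) and -0.53 ± 0.12 at 6 h (adjusted p = 0.000793).

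In C3H at 6 h Ephx1 read 484, 480, 529, 501 and 482 with allergen, against 809, 1179, 717, 671 and 733 with PBS. In C3H at 24 h it read 692, 447, 652, 509 and 687, against 734, 910, 700, 821 and 823. The groups did not overlap, but at 24 h the highest allergen arrays reached almost to the lowest PBS array. The changes were -0.68 ± 0.12 (adjusted p = 0.00011) and -0.42 ± 0.12 (adjusted p = 0.0362), and the call in C3H at 24 h was lost under median centring and without PBS replicate 1, 2, 4 or 5 or allergen replicate 2 or 4 (adjusted p up to 0.155). No covariate or left-out array removed the other 3 calls.

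The 9 carboxylesterases differed among themselves. Ces1g, an esterase of the Ces1 cluster that also acts on lipid esters, had the largest fall of any member. In AJ at 24 h it read 16.7, 16.1, 14.2, 17.7 and 17.6 with allergen, against 136, 123, 81.6, 147 and 136 with PBS (-2.09 ± 0.15, adjusted p = 8.27e-13). In AJ at 6 h it read 19.7, 19.5, 20.7, 18 and 25.2, against 42, 42.9, 33.6, 36.5 and 27.4 (-0.51 ± 0.15, adjusted p = 0.0127). No allergen array reached the lowest PBS array of its time, and the allergen values at both times lay near an intensity of 16.

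In C3H at 24 h Ces1g read 35, 11.3, 42, 31.8 and 32.1 with allergen, against 43.5, 53.3, 37.9, 51.4 and 63.1 with PBS. Those groups overlapped, and the call (-0.54 ± 0.15, adjusted p = 0.0401) was lost under 9 of 18 alternatives, among them leaving out PBS replicate 1, 2, 4 or 5 or allergen replicate 1 or 2. C3H at 6 h gave -0.25 ± 0.15 (adjusted p = 0.388). Ces1g is also abundant in liver, and the liver list was higher in AJ PBS lungs at 24 h. With the liver list as a covariate its AJ call at 24 h held, as it did under the other alternatives (log2 fold change -1.22 to -2.82, adjusted p up to 9.61e-10). That covariate averages 5 measured genes, some of them dim, and was added after seeing the data. The part of liver RNA in the fall was not tested.

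Ces1d, another carboxylesterase of the cluster, fell mildly in AJ at 6 h (-0.39 ± 0.10, adjusted p = 0.00432) and at 24 h (-0.43 ± 0.10, adjusted p = 0.00378) and in C3H at 6 h (-0.31 ± 0.10, adjusted p = 0.0474). All 3 calls were lost when every probe set of the gene was averaged, the C3H call under 13 of 19 alternatives in all, and a dimmer probe set gave 0.14 in C3H at 6 h. Ces2g fell in AJ at 24 h (-0.45 ± 0.13, adjusted p = 0.0221), a call lost without allergen replicate 1 or 5 or PBS replicate 2 or 4. The close relatives Ces1c and Ces1e were not called in any allergen comparison.

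Of 18 glutathione transferases, 5 fell in AJ at 24 h and 4 in AJ at 6 h, and 3 fell in C3H at 6 h and 0 in C3H at 24 h. Of all genes 3.28%, 12.0%, 3.69% and 1.15% were lower in these comparisons, in the same order. Gsta2, an alpha class transferase, changed most. Gsta2 read, in AJ at 24 h, 48.7, 32.9, 57.5, 48.9 and 44.3 with allergen, against 171, 159, 122, 196 and 229 with PBS (-1.60 ± 0.17, adjusted p = 9.52e-09). In AJ at 6 h it read 89, 59.3, 80.3, 59.4 and 79.5, against 90.2, 128, 144, 118 and 110 (-0.58 ± 0.17, adjusted p = 0.0122). No allergen array reached the lowest PBS array at either time, and the separation at 6 h was slight.

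C3H lungs did not show a Gsta2 change that passed the test. At 6 h it read 81.5, 59.8, 87.5, 92 and 87.8 with allergen, against 92.9, 69.4, 74.6, 67.9 and 89.3 with PBS (0.04 ± 0.17). At 24 h it read 159, 63.4, 145, 90 and 137, against 128, 190, 144, 176 and 207 (-0.50 ± 0.17, adjusted p = 0.1). The groups overlapped at both times.

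Gstm1, a bright mu class transferase, fell in AJ at 6 h (-0.47 ± 0.11, adjusted p = 0.00206), in AJ at 24 h (-0.74 ± 0.11, adjusted p = 1.08e-05) and in C3H at 6 h (-0.48 ± 0.11, adjusted p = 0.00473). In AJ at 24 h its arrays spanned 871 to 1247 with allergen and 1663 to 1862 with PBS. The groups were apart in all 3, and the C3H call was lost when its probe sets were averaged (adjusted p = 0.105). In C3H at 24 h Gstm1 was at -0.15 ± 0.11 (adjusted p = 0.503), and its other probe sets gave -0.67, -0.53 and -0.24. Gstp1, the pi class transferase, fell in AJ at 6 h (-0.50 ± 0.11, adjusted p = 0.000955) and 24 h (-0.41 ± 0.11, adjusted p = 0.017), the later call lost without PBS replicate 1 or allergen replicate 2 and with the muscle and adipocyte covariates (adjusted p = 0.126). Gsta3 fell in AJ at 6 h (-0.92 ± 0.25, adjusted p = 0.00556). Gsta4, which conjugates the lipid aldehyde hydroxynonenal, fell in AJ at 24 h (-0.72 ± 0.21, adjusted p = 0.022), and so did Gstz1, an isomerase of tyrosine breakdown (-0.68 ± 0.19, adjusted p = 0.0181). Both calls were lost with either covariate, that of Gsta4 also on leaving out allergen replicate 3, 4 or 5 or PBS replicate 1 or 5, and that of Gstz1 on leaving out allergen replicate 2 or 4 or PBS replicate 3. The theta class genes Gstt1 (-0.39 ± 0.11, adjusted p = 0.0192) and Gstt3 (-0.56 ± 0.15, adjusted p = 0.0121) fell in C3H at 6 h, Gstt1 not without C3H PBS replicate 2 (adjusted p = 0.102).

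Gsto1 was the exception among the transferases. This omega class enzyme reduces substrates with glutathione, and it rose in AJ at 6 h, where it spanned 1283 to 1504 with allergen and 774 to 978 with PBS (0.64 ± 0.12, adjusted p = 6.85e-05). The groups did not overlap, and a second probe set gave 0.62. At 24 h in AJ it was at 0.16 ± 0.12, and in C3H at 0.21 ± 0.12 at 6 h and 0.33 ± 0.12 at 24 h, none past the threshold. The second probe set gave 0.17 in AJ at 24 h, 0.67 in C3H at 6 h and 0.46 in C3H at 24 h, so the C3H value at 6 h depended on the probe set.

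Of 11 sulfotransferases, Sult1a1, which sulfates phenols, fell in AJ at 6 h and in C3H at 24 h. In C3H at 24 h it read 88.6, 119, 153, 122 and 130 with allergen, against 164, 217, 248, 199 and 302 with PBS, without overlap (-0.79 ± 0.18, adjusted p = 0.00877). The AJ arrays at 6 h spanned 134 to 215 and 188 to 362 (-0.68 ± 0.18, adjusted p = 0.00518). It was at 0.10 ± 0.18 in AJ at 24 h and -0.06 ± 0.18 in C3H at 6 h. Sult1d1, a sulfotransferase of amines in the mouse, fell in AJ at 24 h (-0.95 ± 0.30, adjusted p = 0.0402), a call lost under 9 of 19 alternatives, among them leaving out PBS replicate 1, 4 or 5 or allergen replicate 1, 2 or 4. Sult2b1, which sulfates cholesterol, fell in AJ at 24 h, where it spanned 12.6 to 29.8 with allergen and 41.8 to 60.9 with PBS (-0.78 ± 0.18, adjusted p = 0.0028).

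Of 9 glucuronosyltransferases Ugt2b34 alone was called, lower in AJ at 24 h (-0.51 ± 0.15, adjusted p = 0.0303). It was dim, at 0.721 to 7.73 with allergen and 11.4 to 16.8 with PBS, and the call was lost under 8 of 18 alternatives, among them leaving out PBS replicate 2, 4 or 5 or allergen replicate 1, 3 or 4. Probe sets that name several Ugt1a genes are not analysed here.

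Of 9 mitochondrial and amino acid aldehyde dehydrogenases, Aldh7a1, an enzyme of lysine breakdown, fell in AJ at 6 h (-0.45 ± 0.11, adjusted p = 0.00289), in AJ at 24 h (-0.44 ± 0.11, adjusted p = 0.00891) and in C3H at 6 h (-0.45 ± 0.11, adjusted p = 0.0084). The AJ arrays did not overlap at either time. All 3 calls were lost when its probe sets were averaged, the AJ call at 24 h also with either covariate, the C3H call also without PBS replicate 2, and the dimmer ones gave 0.004 and 0.02 in AJ at 24 h. Aldh2, which clears acetaldehyde, fell in AJ at 24 h (-0.48 ± 0.14, adjusted p = 0.0291), a call lost under 8 of 19 alternatives, among them leaving out PBS replicate 1 or 5 or allergen replicate 1, 2 or 4. Aldh18a1, which makes the precursor of proline, fell in AJ at 6 h (-0.57 ± 0.18, adjusted p = 0.018), but not without PBS replicate 4 (adjusted p = 0.0798). Aldh3a1, an aldehyde dehydrogenase of stratified epithelia, had the largest SE of any member and read 71 to 423 with allergen and 365 to 614 with PBS in AJ at 24 h (-1.39 ± 0.45, adjusted p = 0.0524).

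The allergen effect itself was then compared between strains. At 24 h the difference (C3H minus AJ) passed the test for 4 of 132 members, against a background of 0.460% of all genes. Ces1g differed by 1.56 ± 0.21 (adjusted p = 7.75e-05), Gsta2 by 1.10 ± 0.24 (adjusted p = 0.0269), Ephx1 by 0.72 ± 0.17 (adjusted p = 0.0379) and Aldh1a3 by -1.12 ± 0.27 (adjusted p = 0.0482). In all 4 the change was larger in AJ. In PBS lungs at 24 h Ces1g was lower in C3H than in AJ (-1.09 ± 0.15), so part of its difference lies in the PBS groups. Gsta2, Ephx1 and Aldh1a3 were at -0.04, 0.05 and 0.05 between the strains' PBS lungs. Only Ces1g held under every alternative. Gsta2 was lost under 9 of 29 alternatives, Ephx1 under 16 of 29 and Aldh1a3 under 23 of 28. The count was 1 with the muscle and adipocyte or the liver list as covariates, and 1 to 6 when single arrays were left out. The share of all genes under those settings is not given. These 4 values rest on the same AJ arrays as the falls and rises in AJ at 24 h given above. At 6 h 0 members passed, with 15 at an unadjusted p under 0.05 and a background of 2.15%. The closest were Cyp4f18 (-1.38 ± 0.39, adjusted p = 0.0519) and Aldh18a1 (0.85 ± 0.25, adjusted p = 0.0606).

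**Figure D4:**
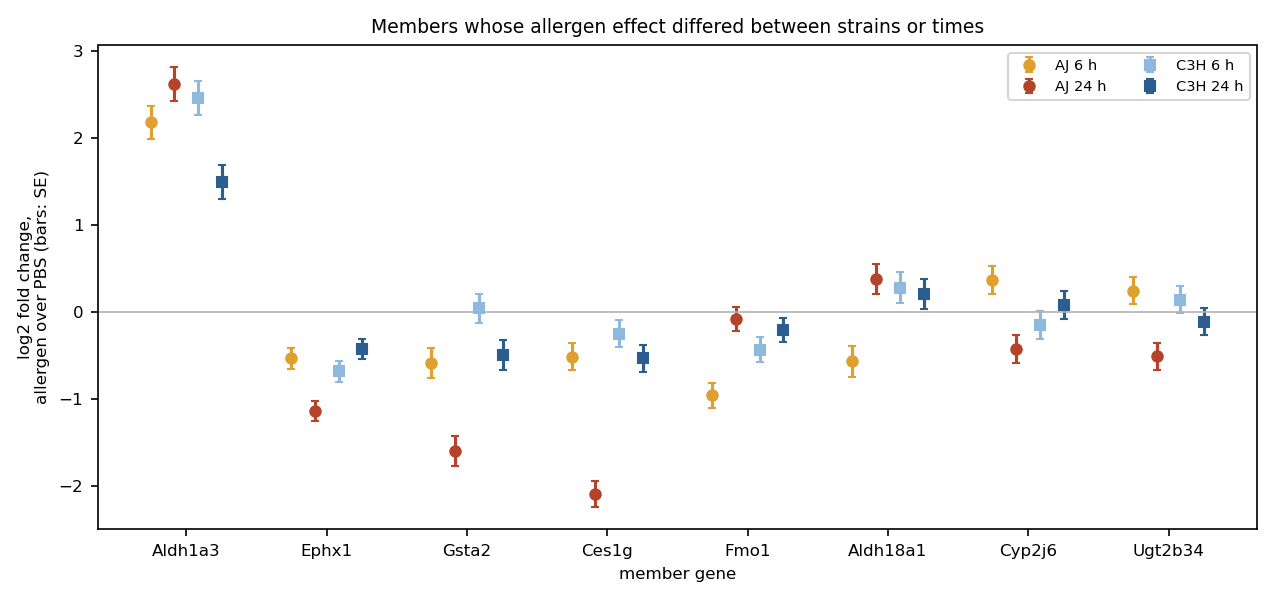
Log2 fold change (allergen over PBS) with SE bars in the 4 allergen comparisons, for the 8 members whose allergen effect differed between strains or between times. Ces1g, Gsta2 and Ephx1 lie lowest in AJ at 24 h (-2.09, -1.60 and -1.14), while Fmo1 and Aldh18a1 lie lowest in AJ at 6 h (-0.96 and -0.57).

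Between times the allergen effect in AJ differed (24 h minus 6 h) for 7 members, against a background of 5.62%. Ces1g (-1.58 ± 0.21, adjusted p = 4.79e-06), Gsta2 (-1.02 ± 0.24, adjusted p = 0.00701) and Ephx1 (-0.61 ± 0.17, adjusted p = 0.0216) were further below PBS at 24 h. PBS lungs of AJ changed as well: from 6 h to 24 h Ces1g rose there by 1.41 ± 0.15 and Ugt2b34 by 0.59 ± 0.15. Gsta2 and Ephx1 were at 0.50 ± 0.17 and 0.25 ± 0.12 in that comparison, neither past the threshold. Part of these differences thus lies in the PBS groups. Fmo1 (0.88 ± 0.20, adjusted p = 0.00479) and Aldh18a1 (0.95 ± 0.25, adjusted p = 0.0156) were below PBS at 6 h and not called at 24 h. Cyp2j6, grouped here with the fatty acid and eicosanoid members (-0.79 ± 0.23, adjusted p = 0.0299), and Ugt2b34 (-0.76 ± 0.22, adjusted p = 0.0296) were dim. Each was lost with a pseudocount of 64. With the liver list as a covariate 4 members passed, and Gsta2, Ephx1 and Cyp2j6 did not. In C3H 0 members passed, with 19 at an unadjusted p under 0.05 and a background of 0.880%. Aldh7a1 was at 0.61 ± 0.16 there (adjusted p = 0.0543).

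Without allergen the strains differed at few members. In PBS lungs at 6 h 3 members were lower in C3H than in AJ and 0 were higher (backgrounds 2.10% and 2.36%), with 20 members at an unadjusted p under 0.05. Cyp4b1 spanned 1659 to 2372 in C3H and 2494 to 2818 in AJ (-0.48 ± 0.11, adjusted p = 0.0079), and did not overlap. Aldh6a1, an enzyme of valine breakdown (-0.52 ± 0.14, adjusted p = 0.0219), and Ces1f (-0.77 ± 0.23, adjusted p = 0.0438) overlapped between strains, and Ces1f was lost under 12 of 19 alternatives, among them leaving out C3H replicate 4, which read 4.4 against 32.6 to 42.1 on the other C3H arrays. Aldh6a1 was lost without AJ replicate 3 or 5 or C3H replicate 1 or 2. At 24 h 1 member was lower and 1 higher (backgrounds 0.839% and 1.09%). Ces1g read 37.9 to 63.1 in C3H and 81.6 to 147 in AJ (-1.09 ± 0.15, adjusted p = 7.68e-06). Gsto1 read 1254 to 1635 in C3H and 957 to 1155 in AJ (0.50 ± 0.12, adjusted p = 0.0103), a call lost when its probe sets were averaged and with the liver covariate (adjusted p = 0.139). Cyp4b1 at 24 h was at -0.38 ± 0.11 (adjusted p = 0.067), again with no overlap.

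PBS lungs of 24 h were also set against those of 6 h. In AJ 5 members passed (background 5.37%) and in C3H 6 (background 3.21%), all higher at 24 h. Ces1g rose in both, by 1.41 ± 0.15 in AJ (adjusted p = 8.36e-08) and 0.76 ± 0.15 in C3H (adjusted p = 0.00225). Gstt3 rose likewise, by 0.66 ± 0.15 (adjusted p = 0.00583) and 0.63 ± 0.15 (adjusted p = 0.0103). Gsta2 rose in C3H by 0.96 ± 0.17 (adjusted p = 0.000645), and was at 0.50 ± 0.17 in AJ (adjusted p = 0.0734). Fmo5 (0.82 ± 0.19, adjusted p = 0.00915), Aldh1a2 (0.54 ± 0.15, adjusted p = 0.0313) and Gsto1 (0.43 ± 0.12, adjusted p = 0.0313) rose in C3H. Fmo5 was lost without replicate 3 of 6 h (adjusted p = 0.0511). Aldh1a2 was lost without replicate 1, 2, 3 or 5 of 24 h or 1, 3, 4 or 5 of 6 h (adjusted p up to 0.0954). Gsto1 was lost under median centring and without replicate 1, 2, 4 or 5 of 24 h or 4 or 5 of 6 h (adjusted p up to 0.114). Aldh1a7, a rodent relative of Aldh1a1 (0.60 ± 0.16, adjusted p = 0.022), Aldh3b1 (0.59 ± 0.17, adjusted p = 0.0331) and Ugt2b34 (0.59 ± 0.15, adjusted p = 0.0187) rose in AJ. Aldh1a7 was lost without replicate 1 of 24 h or 4 or 5 of 6 h, Aldh3b1 without replicate 1 or 3 of 24 h or 2 or 3 of 6 h, both also with the liver covariate, and Ugt2b34 when its probe sets were averaged. The PBS arrays are the same ones that serve as controls of the allergen comparisons, and no untreated lung or other clock time is at hand. Without AJ PBS replicate 1 at 24 h, or with the liver list as a covariate, the count in AJ was 3.

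RefSeq promoters (GRCm38.p6, 250 bases before to 50 after the start) were found for 102 of the 132 genes. Those of Ces1g, Gsta2, Ephx1 and Cyp4f18 are shown because these members carry the largest changes that have an entry. All lie on the minus strand of the genome and are printed 5′ to 3′ along the gene. Capitals mark letters that match 1 of 3 motifs searched on both strands: GCGTG, the core bound by the aryl hydrocarbon receptor; TGACNNNGC, the antioxidant response element; and TTATGTAA or TTACGTAA, the D-box of the clock factors Dbp, Tef, Hlf and Nfil3.
Ces1g (chr8:93337160-93337459): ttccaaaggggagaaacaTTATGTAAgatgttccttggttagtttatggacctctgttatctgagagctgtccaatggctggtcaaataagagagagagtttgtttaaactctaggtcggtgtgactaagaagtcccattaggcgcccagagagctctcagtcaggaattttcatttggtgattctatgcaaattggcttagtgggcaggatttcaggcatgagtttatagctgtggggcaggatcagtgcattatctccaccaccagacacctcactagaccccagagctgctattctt
Gsta2 (chr9:78347096-78347395): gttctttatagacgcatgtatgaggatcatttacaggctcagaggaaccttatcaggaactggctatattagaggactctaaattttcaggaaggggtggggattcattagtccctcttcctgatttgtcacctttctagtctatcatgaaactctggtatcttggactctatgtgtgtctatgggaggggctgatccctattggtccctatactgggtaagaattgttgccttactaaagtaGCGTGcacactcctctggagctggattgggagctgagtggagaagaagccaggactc
Ephx1 (chr1:181017520-181017819): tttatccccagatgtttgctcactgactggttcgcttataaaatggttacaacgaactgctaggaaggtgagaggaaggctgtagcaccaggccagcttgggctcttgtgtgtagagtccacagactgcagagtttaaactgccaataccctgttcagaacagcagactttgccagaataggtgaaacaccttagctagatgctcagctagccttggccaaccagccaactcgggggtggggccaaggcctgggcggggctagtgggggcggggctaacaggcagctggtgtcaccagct
Cyp4f18 (chr8:72009577-72009876): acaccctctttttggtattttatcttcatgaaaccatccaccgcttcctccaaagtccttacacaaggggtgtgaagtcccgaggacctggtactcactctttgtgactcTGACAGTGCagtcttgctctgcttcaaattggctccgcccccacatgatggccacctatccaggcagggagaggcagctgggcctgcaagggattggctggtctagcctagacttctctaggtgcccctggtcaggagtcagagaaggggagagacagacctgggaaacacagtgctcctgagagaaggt

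The Ces1g window holds a D-box at -232 from the start, that of Gsta2 a GCGTG at -7, and that of Cyp4f18 a TGACNNNGC match at -140. No capital appears in the Ephx1 window. Across the family, GCGTG was found in the promoters of 26 of 102 genes (25.5%), against 35.2% of all genes in the table, and TGACNNNGC in 10 (9.80%), against 14.0%. A D-box was found in 4 genes (3.92%), Ces1c, Ces1e, Ces1g and Ugt2b1, against 1.23% of all genes. Of these 4 only Ces1g was called in an allergen comparison. Such a match is a description of letters, and no binding was measured.

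Genes that work with these enzymes were counted from a list of 83, of which 76 were measured. In AJ 16 fell and 5 rose at 6 h, where 12.0% of all genes were lower and 7.03% higher, and 14 fell and 1 rose at 24 h, where 3.28% of all genes were lower and 4.56% higher. In C3H 8 fell and 2 rose at 6 h (3.69% and 3.93% of all genes), and 3 fell and 2 rose at 24 h (1.15% and 2.10%). Of 22 other detoxifying enzymes 5 fell and 1 rose in AJ at 6 h, and 6 fell and 0 rose at 24 h. In C3H 3 of them fell and 1 rose at 6 h, and 0 fell and 1 rose at 24 h. The shares of all genes are those just given. Among these enzymes Nqo1, a quinone reductase, fell in AJ at 6 h (-0.62 ± 0.15, adjusted p = 0.00159) and 24 h (-0.76 ± 0.15, adjusted p = 0.00039). Adh1, an alcohol dehydrogenase that also oxidises retinol, fell in AJ at 6 h (-0.50 ± 0.15, adjusted p = 0.0183) and 24 h (-0.94 ± 0.15, adjusted p = 4.38e-05) and in C3H at 6 h (-0.87 ± 0.15, adjusted p = 0.000183). Pon1, a lactonase, fell in AJ at 6 h (-1.09 ± 0.16, adjusted p = 1.25e-06) and 24 h (-0.77 ± 0.16, adjusted p = 0.000826). For genes outside the families no covariate or left-out array is given, and the part of the marker lists in their calls was not tested.

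Among 8 genes of cofactor supply, Gss (glutathione synthetase) fell in AJ at 6 h (-0.55 ± 0.11, adjusted p = 0.000367), AJ at 24 h (-0.53 ± 0.11, adjusted p = 0.0016) and C3H at 6 h (-0.45 ± 0.11, adjusted p = 0.00972). Papss2, which makes the sulfate donor used by Sult enzymes, fell in AJ at 6 h (-0.98 ± 0.19, adjusted p = 0.000156). Gclc, the catalytic subunit of the first step of glutathione synthesis, was lower at 24 h than at 6 h in PBS lungs of AJ (-1.63 ± 0.20, adjusted p = 1.33e-06) and C3H (-1.98 ± 0.20, adjusted p = 2.42e-08). All 7 measured exporters, the ABC pumps of conjugates, were uncalled in the 4 allergen comparisons. Dbp, a clock output factor, fell in AJ at 6 h (-1.79 ± 0.21, adjusted p = 2.94e-08), in AJ at 24 h (-2.48 ± 0.21, adjusted p = 4.6e-11) and in C3H at 6 h (-1.08 ± 0.21, adjusted p = 0.000644). It was at -0.66 ± 0.21 in C3H at 24 h (adjusted p = 0.0764), and the difference between strains at 24 h was 1.82 ± 0.30 (adjusted p = 0.00144).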

How the data were processed

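Each deposited value is a probe set's intensity on a linear scale, computed by the authors with software not given in the sources used here. The members, lists and alternatives were chosen with earlier results of these data known. Of 22690 probe sets, 20380 had 1 gene symbol, and the brightest by mean log2(intensity + 16) stood for its gene, which left 12393 genes. All 132 members matched the RefSeq gene table. Probe sets ending in _s_at or _x_at, which can read related genes, stood for Aldh18a1, Ces1f, Cyp2b10, Cyp7b1, Fmo5, Gstm1 and Ugt2b34 among the members called in any contrast, and 10 family probe sets with several symbols were left out. Using limma 3.58.1 under R 4.3.3, 8 group means were fitted to log2(intensity + 16) by lmFit and moderated by eBayes, with 32 residual degrees of freedom and a prior worth 4.62. The 12 contrasts were tested two-sided and each adjusted by Benjamini-Hochberg over all genes. Data were simulated for the AJ comparison at 6 h with 12393 genes, 200 of them changed, and independent noise. There 44% of log2 changes of 0.5 and 90% of changes of 1 were recovered, and 5.63% of calls were false. In the real comparison 19% of all genes were called, so recovery there and in the other contrasts may differ. The rule for named genes took the 10 largest calls of each sign per allergen comparison (8 between strains in PBS lungs, 6 elsewhere) and a list of well-known members, not all printed; Ces1c, Ces1e and Ugt2b1 were named for their promoters after their values were seen. The number of arrays limits the precision. As alternatives, arrays were quantile normalized or centred on their medians, the pseudocount was 1 or 64, the dimmest 25% of genes were dropped, all probe sets of a gene were averaged, replicate numbers were a block, and each array was left out. Marker lists as covariates were added after seeing the data.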

Additional observations from a re-analysis of the deposited data

Results flagged for a closer look

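Of 288 groups of 5 arrays for 36 members, 16 had 1 array whose gap to the nearest other exceeded 0.71 of the range, and chance alone gives about 1 in 20 groups. C3H allergen replicate 2 at 24 h and C3H PBS replicate 2 at 6 h had 3 such gaps each. On the first, Aldh18a1 was high at 187, Ces1g low at 11.3 and Cyp4b1 low at 1169. On the second, Aldh18a1 was high at 157, Ces2g read 143 and Sult1d1 read 21.5. Among the AJ allergen arrays, replicate 3 at 24 h was low for Cyp4f18 (13.8) and high for Ces1f (56.5). In the AJ PBS groups Aldh6a1 (156, low) and Gstm1 (1862, high) stood apart on replicate 1 at 24 h, Ugt2b34 (16.8, high) on replicate 4 at 24 h, and Aldh2 (753) on replicate 3 at 6 h. In C3H, Gsta2 (59.8, low) stood apart on allergen replicate 2 at 6 h, Ugt2b34 (21.5, high) on allergen replicate 5 at 24 h, Gsta4 (306) on PBS replicate 3 at 24 h and Ces1f (4.4, low) on PBS replicate 4 at 6 h.

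The allergen effect at 24 h differed between strains (C3H minus AJ, limma) by 1.56 for Ces1g, 1.10 for Gsta2, 0.72 for Ephx1 and -1.12 for Aldh1a3. Between times in AJ (24 h minus 6 h) it differed by -1.58 for Ces1g, -1.02 for Gsta2, -0.79 for Cyp2j6, -0.76 for Ugt2b34, -0.61 for Ephx1, 0.88 for Fmo1 and 0.95 for Aldh18a1.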

How the results depend on the processing

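Of 81 calls of a member in a comparison, 39 held under every alternative run, 42 were lost under at least 1 and 0 turned direction. The cause of the losses was not tested. Here and above, the share of all genes called under an alternative is not given, so such counts have no background beside them. Without the dimmest 25% of genes, all 60 calls still tested held. Lower counts given below for that setting come from called members that were dropped, not from lost calls. In AJ at 24 h the 17 lower members became 11 with the muscle and adipocyte covariates, 8 with the liver covariate and 11 to 18 with 1 array left out, and the 4 higher became 2 without the dimmest genes. In C3H at 6 h the 4 higher members became 2 without the dimmest genes and 2 to 4 with 1 array left out. In C3H at 24 h the 1 higher member became 2 with quantile normalization, median centring or the muscle and adipocyte covariates, 4 with a pseudocount of 1, 0 without the dimmest genes and 1 to 4 with 1 array left out (4 without allergen replicate 5, 2 without PBS replicate 4). The 3 lower there became 1 with median centring and 1 to 4 with 1 array left out (1 without allergen replicate 2 or PBS replicate 1, 4 or 5). Between strains in PBS lungs at 6 h, the 0 higher became 1 with quantile normalization, a pseudocount of 1, averaged probe sets or the muscle and adipocyte covariates and 0 to 1 with 1 array left out, and the 3 lower became 1 to 3 (1 without AJ replicate 3 or C3H replicate 1). At 24 h the 1 higher became 0 with averaged probe sets or the liver covariate and 2 with the muscle and adipocyte covariates, and the 1 lower became 2 with quantile normalization or a pseudocount of 64 and 1 to 3 with 1 array left out (3 without AJ replicate 1, 2 without C3H replicate 2 or 5).

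The difference between strains at 6 h had 0 members, 1 with a pseudocount of 64, without the dimmest genes or with the replicate block, 2 with averaged probe sets and 0 to 2 with 1 array left out (2 without AJ allergen replicate 1 or C3H allergen replicate 2, 1 without AJ allergen replicate 5, AJ PBS replicate 1, C3H allergen replicate 5 or C3H PBS replicate 2). At 24 h its 4 members became 2 with median centring or without the dimmest genes, 1 with either covariate and 1 to 6 with 1 array left out; it was 1 or 2 without any of AJ allergen replicates 1, 2 and 4, AJ PBS replicates 2, 3 and 5, C3H allergen replicates 1, 3 and 5 and C3H PBS replicates 1, 3, 4 and 5. The 7 members that differed between times in AJ became 4 without the dimmest genes or with the liver covariate, and the 0 in C3H became 2 with a pseudocount of 64, 1 without the dimmest genes or with the muscle and adipocyte covariates and 0 to 2 with 1 array left out (2 without allergen replicate 4 or PBS replicate 2 at 24 h or PBS replicate 5 at 6 h). The 5 members higher at 24 h in AJ PBS lungs became 3 with the liver covariate and 3 to 7 with 1 array left out (3 without replicate 1 at 24 h). Same-numbered allergen and PBS arrays correlated at -0.23 to 0.26 in their deviations, with 3 of 20 pairs over 0.1, so the numbers were not taken to pair samples. With the replicate block 19 members were lower in AJ at 24 h, 13 in AJ at 6 h, 7 in C3H at 6 h and 4 in C3H at 24 h. Members near the bottom of the scale carry the least certain fold changes: for Aldh1a3 in AJ at 6 h they ran from 0.83 to 4.17 and for Cyp4f18 from 1.34 to 4.06.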
